A study of Mus musculus with 2 samples.

Results

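The let-7 family is a set of miRNA genes that give rise to closely related mature miRNAs with a shared seed, the stretch that pairs with target messages. The genes described here are Mirlet7a-1, Mirlet7a-2, Mirlet7b, Mirlet7c-1, Mirlet7c-2, Mirlet7d, Mirlet7f-2, Mirlet7g, Mirlet7i and Mir98. They are 10 of the 1973 miRNA genes with counts in each library, and were chosen by symbol, with Ensembl identifiers matched to GENCODE M21. The study sequenced short RNA from the liver of mouse embryos of strain B6NCrl at 12.5 days, with males and females pooled and no treatment or mutant allele named. There was 1 group with 2 biological replicates, a pool of 120 embryos (replicate 1) and a pool of 88 embryos (replicate 2), so no conditions were compared. Both pools carry the same donor identifier in the labels, and the spread between them may be technical in part.

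let-7 was found in Caenorhabditis elegans as a switch of developmental timing, and in mammals its mature forms accumulate as cells differentiate and repress growth-promoting messages such as Hmga2, Myc and the Ras genes. The RNA-binding proteins Lin28a and Lin28b bind the terminal loop of let-7 precursors and block their processing, and let-7 in turn represses Lin28, so that each holds the other down. Lin28b is known from fetal liver blood stem and progenitor cells, where it marks the fetal kind of blood formation. The tables list miRNA genes, so Lin28a, Lin28b and the let-7 target messages are not analysed here.

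The 5p arm carries the let-7 miRNA proper. Its RefSeq mature sequences on GRCm38.p6 are shown because which genes share them bears on which reads can be placed. All 10 genes were matched in RefSeq. The table has no 5p entry for Mirlet7a-2, whose hairpin holds the let-7a sequence. Capitals mark the seed, bases 2 to 8.
let-7a (Mirlet7a-1, Mirlet7a-2): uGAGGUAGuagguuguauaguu
let-7b (Mirlet7b): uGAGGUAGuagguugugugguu
let-7c (Mirlet7c-1, Mirlet7c-2): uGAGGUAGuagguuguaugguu
let-7d (Mirlet7d): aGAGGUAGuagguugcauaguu
let-7f (Mirlet7f-2): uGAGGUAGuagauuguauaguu
let-7g (Mirlet7g): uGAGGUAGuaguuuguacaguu
let-7i (Mirlet7i): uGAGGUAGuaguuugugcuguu
miR-98 (Mir98): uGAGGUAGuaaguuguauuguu

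These 8 forms have 22 bases each and the same seed. Counted from the 5′ end, let-7c differs from let-7a by A19G and let-7f by G12A. let-7b differs from let-7a by A17G and A19G, and from let-7c by 1 base. let-7d differs from let-7a by U1A and U16C, let-7g by G12U and U18C, and miR-98 by G11A and A19U. let-7i differs most from let-7a, with G12U, A17G, U18C and A19U.

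Each of 5 genes encodes a 5p form that no other RefSeq hairpin holds, namely Mirlet7b, Mirlet7d, Mirlet7g, Mirlet7i and Mir98. The other 5 have a repeated form. let-7a is held by Mirlet7a-1 and Mirlet7a-2, let-7c by Mirlet7c-1 and Mirlet7c-2, and let-7f by Mirlet7f-2 and Mirlet7f-1. Mirlet7f-1 and Mirlet7e are not analysed here. The 3p arm, the other strand of the duplex, divides the repeated genes further, and its sequences are shown for that reason.
Mirlet7a-1: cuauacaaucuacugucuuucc
Mirlet7c-2: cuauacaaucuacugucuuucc
Mirlet7a-2: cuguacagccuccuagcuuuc
Mirlet7c-1: cuguacaaccuucuagcuuucc
Mirlet7f-2: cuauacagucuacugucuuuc

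The 3p arms of Mirlet7a-1 and Mirlet7c-2 were identical, so both arms of these 2 genes are shared with another gene. Those of Mirlet7a-2, Mirlet7c-1 and Mirlet7f-2 are held by 1 gene each. Reads aligned to several places were set apart by the authors and belong to no gene's count. There were 3180324 such reads in replicate 1 and 3427344 in replicate 2, or 15.6 and 18.6 for each count on a let-7 gene. How many of them came from let-7a, let-7c or let-7f cannot be read from these tables. A low count on a repeated gene is therefore no measure of its mature form.

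The libraries held 11057424 reads in replicate 1 and 11013976 in replicate 2, and sense counts on miRNA genes came to 3447858 and 3534816. Each level below is scaled to 1000000 sense counts (CPM). They were not divided by length, since mature forms of the family have 21 or 22 bases, and how well each form is captured in a library was not measured. A gene without counts could have up to 3, which is 0.870 CPM in replicate 1 and 0.849 CPM in replicate 2. Reads carried no molecular identifiers, so intervals and limits cover counting error only. The liver label was checked against marker miRNAs. Hepatocyte Mir122 stood at 60913 and 47128 CPM in replicates 1 and 2, endothelial Mir126a at 68816 and 68165 CPM, and the 3 erythroid markers summed to 16926 and 37430 CPM. Of 5 neural markers analysed, Mir124a-1, Mir124a-2, Mir124a-3 and Mir9-2 had 0 counts and Mir9-3 had 6 and 4 counts. Most of these share their mature form with other genes, and reads aligned to several places are not counted. Such low counts therefore do not show that a mature form was absent. Of 4 muscle markers analysed, 3 had 0 counts, while Mir206 stood at 129 and 288 CPM.

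The let-7 genes together held 5.92% of the miRNA gene counts in replicate 1 (exact Clopper-Pearson 95% interval 5.90% to 5.95%) and 5.20% in replicate 2 (5.18% to 5.23%). The mean was 5.56% ± 0.509 (SD, n = 2). In tissue RNA, fewer cells of a type and less RNA per cell cannot be told apart, which holds for every level below. Of the 10 genes, 9 reached 10 CPM in both libraries, while 301 of all 1973 genes, or 15.3%, did so. The median of all 10 let-7 genes, whether or not they reached 10 CPM, was 593 CPM, against 316 CPM for all genes that reached it. Of the 10 let-7 genes, 5 lay above 316 CPM.

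Mirlet7g and Mirlet7i carried most of the counts on the let-7 genes. Mirlet7g had 107291 counts in replicate 1 and 99297 in replicate 2, or 31118 and 28091 CPM, with a mean of 29605 ± 2140 CPM (SD, n = 2) and rank 7 of all miRNA genes. Mirlet7i had 66291 and 61141 counts, or 19227 and 17297 CPM, with a mean of 18262 ± 1365 CPM and rank 17. Both genes were high in both libraries, and the values of Mirlet7g lay above those of Mirlet7i in each. Together they held 85.0% of the let-7 counts in replicate 1 and 87.2% in replicate 2. Both have a single mature form and stand apart from other let-7 genes in the genome. Reads of repeated forms that aligned to several places are not counted. The 85.0% and 87.2% are therefore shares of counts and do not rank the mature forms.

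Mirlet7g (ENSMUSG00000065440.1) lies on chromosome 9, 106178840 to 106178927, on the plus strand of mm10. It sits in an intron of Wdr82, which encodes a subunit of histone methyltransferase complexes. Mirlet7i (ENSMUSG00000065406.2 in the tables, version 3 of the same gene in M21) lies on chromosome 10, 122985640 to 122985724, on the minus strand. It overlaps an exon of D630033A02Rik, a transcribed pseudogene. Counts of Mirlet7g were 1.62 times those of Mirlet7i in each library.

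By level in both libraries, the other miRNA genes nearest to Mirlet7g were Mir322, Mir21a and Mir99a, at distances of 0.16, 0.34 and 0.50 on the log2(CPM + 1) scale. Nearest to Mirlet7i were Mir487b, Mir30e and Mir127, at 0.14, 0.16 and 0.16. With 2 libraries, this likeness is one of level, not of pattern.

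Mirlet7d and Mir98 formed a second tier, both also with a single mature form. Mirlet7d stood at 3939 and 2637 CPM in replicates 1 and 2, with a mean of 3288 ± 921 CPM (SD, n = 2). Mir98, the let-7 gene with a name of its own, stood at 3413 and 2751 CPM, with a mean of 3082 ± 468 CPM. Their means differed by 206 CPM, less than the SD of Mirlet7d, and Mirlet7d was the higher one in replicate 1 and Mir98 in replicate 2. Both lay 5.55 times or more below Mirlet7i on average.

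Mirlet7f-2 and Mirlet7b came next, and their order went against their mature class. Mirlet7f-2, with a repeated 5p form, stood at 1011 and 873 CPM in replicates 1 and 2, with a mean of 942 ± 98.0 CPM (SD, n = 2). Mirlet7b, with a single form, stood at 264 and 224 CPM, with a mean of 244 ± 27.8 CPM. The gap was larger than the SD of either gene and had the same sign in both libraries.

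The lowest genes all had a repeated mature form. Mirlet7a-1 had 411 and 283 counts in replicates 1 and 2, or 119 and 80.1 CPM, with a mean of 99.6 ± 27.7 CPM (SD, n = 2). Mirlet7a-2 had 432 and 247 counts, or 125 and 69.9 CPM, with a mean of 97.6 ± 39.2 CPM. These 2 genes for let-7a could not be ordered, since their means differed by less than their SD and the order turned between the libraries. Mirlet7c-1 had 73 and 75 counts and a mean of 21.2 ± 0.0318 CPM, and this SD is below what counting error alone would give. Mirlet7c-2 had 24 and 13 counts and a mean of 5.32 ± 2.32 CPM, the 1 let-7 gene under 10 CPM. Steps that could not be ordered were those of Mirlet7a-1 with Mirlet7a-2 and of Mirlet7d with Mir98. Every other step in the order of the 10 genes was larger than the SD of both neighbours and held in both libraries.

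**Figure D1:**
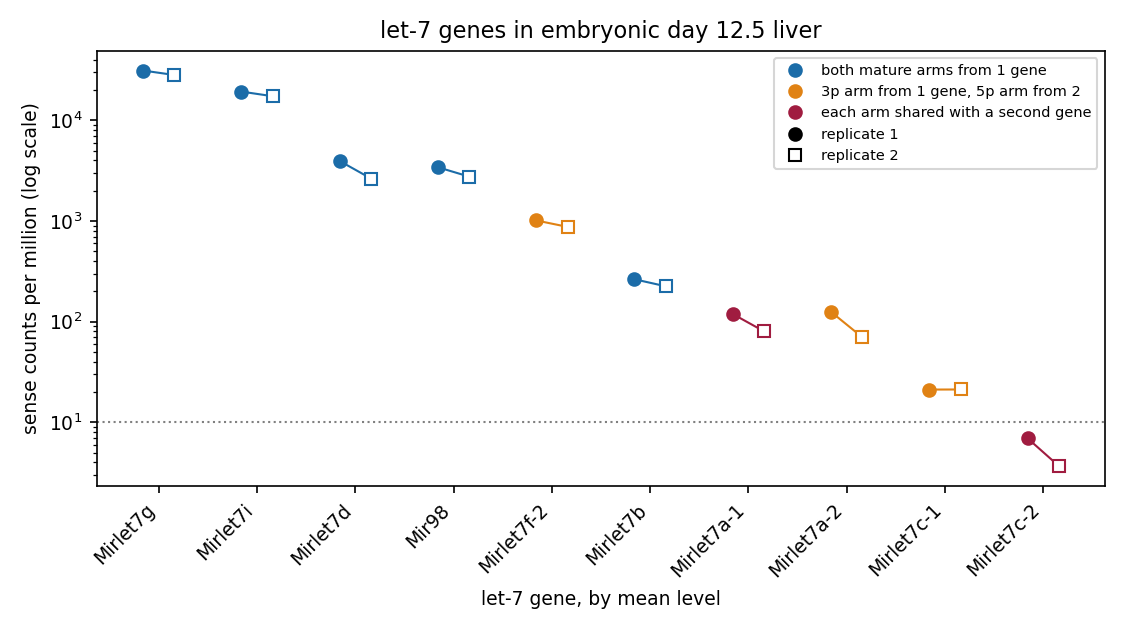
Level of each let-7 gene in CPM on a log axis, with replicate 1 as filled circles and replicate 2 as open squares. Colours show which mature arms come from 1 gene, and the dotted line is 10 CPM. Mirlet7g and Mirlet7i lie highest in both libraries, and Mirlet7c-2 lies under the line.

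By mature class, genes with a single 5p form held 97.8% and 98.0% of the let-7 counts in replicates 1 and 2, with a mean of 97.9% ± 0.109 (SD, n = 2). The 5 genes with a repeated form held 2.17% and 2.01%. Since reads aligned to several places are not counted, the counting rule itself favours genes with a single form. The shares of the 2 classes therefore do not compare their mature forms. Within the repeated class, the 3 genes with a 3p arm of their own summed to 1158 and 964 CPM, and the 2 with neither arm of their own to 126 and 83.7 CPM. The first sum rests on Mirlet7f-2, with 1011 and 873 CPM, since Mirlet7a-2 and Mirlet7c-1 averaged less than Mirlet7a-1. Single-form genes ranged from 244 to 29605 CPM on average and repeated ones from 5.32 to 942 CPM, so the ranges overlapped.

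The same classes were counted over all 916 listed genes with a RefSeq mature form. Of 37 genes without a single mature form, 4 reached 10 CPM in both libraries, or 10.8%, and 70.3% had 0 counts. Of 827 genes with single forms throughout, 241 reached it, or 29.1%, and 30.1% had 0 counts. Of 52 genes with some forms single, 31 reached it, or 59.6%. Mirlet7a-1 and Mirlet7c-2 belong to the class without a single form, and Mirlet7a-1 is 1 of its 4 genes past 10 CPM. Among other mouse genes whose RefSeq mature sequence carries the seed letters GAGGUAG, Mir1961 and Mir7k had 0 counts in both libraries. RefSeq names the mature form of Mir7k let-7k.

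Most let-7 genes lie in small groups, and members of a group differed widely in counts. Mirlet7a-1 and Mirlet7d lie 2064 bases apart on the minus strand of chromosome 13, at 48538179 to 48538272 and 48536012 to 48536114, in exons of the long noncoding RNA 6720427I07Rik. Their identifiers are ENSMUSG00000065421.2 and ENSMUSG00000065453.1. Mirlet7d had 33.0 times the counts of Mirlet7a-1 in replicate 1 and 32.9 times in replicate 2. Mirlet7c-2 and Mirlet7b lie 621 bases apart on the plus strand of chromosome 15, at 85706603 to 85706697 and 85707319 to 85707403, in exons of the noncoding transcript Lncppara. Their identifiers are ENSMUSG00000065608.1 and ENSMUSG00000065564.1. Mirlet7b had 37.9 and 61.0 times the counts of Mirlet7c-2, a ratio that rests on 24 and 13 counts.

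Mirlet7f-2 and Mir98 lie 785 bases apart in an intron of Huwe1, the gene of a ubiquitin ligase, on the plus strand of chromosome X. Mirlet7f-2 (ENSMUSG00000065602.1) spans 151912346 to 151912428 and Mir98 (ENSMUSG00000065536.2) spans 151913214 to 151913321. Here Mir98 had 3.37 and 3.15 times the counts of Mirlet7f-2, the smallest step within the 3 pairs of let-7 genes. In all 3 pairs the single-form gene had more counts than the repeated one beside it. Reads of a repeated form that aligned to several places are not counted, so the ratios of these 3 pairs are no measure of mature forms.

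The remaining genes belong to loci that pair let-7 with miR-100 or miR-99a and miR-125b, the family of the worm timing miRNA lin-4. Mirlet7a-2 (ENSMUSG00000092770.1) is on the plus strand of chromosome 9, 41536716 to 41536811, within introns of the noncoding transcripts 3110039I08Rik and Gm49317. Mir100, 5211 bases upstream, had 37.4 and 84.1 times its counts in replicates 1 and 2. Mir125b-1, 45114 bases downstream, had 2.83 and 5.52 times its counts. Mirlet7c-1 (ENSMUSG00000065557.2) is on the plus strand of chromosome 16, 77599657 to 77599750, within an intron of the noncoding Mir99ahg. Mir99a, 656 bases upstream and with a single mature form, had 1037 and 1347 times the counts of Mirlet7c-1. Mir125b-2, which shares its 5p form with Mir125b-1, had 9.60 and 10.4 times its counts. Mir99a and Mir100 averaged 25265 ± 4689 and 5281 ± 840 CPM (SD, n = 2). Mirlet7a-2 and Mirlet7c-1 have repeated 5p forms, so the ratios to their counts do not compare mature forms.

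Mirlet7e itself is not analysed here, while the genes beside it in the third locus of this kind, on chromosome 17, were measured. Mir99b stood at 11764 and 11148 CPM in replicates 1 and 2, and Mir125a, the other lin-4 homolog, at 2317 and 1815 CPM. Within 60 kb on the same strand, Mirlet7g had Mir135a-1 with 9 and 10 counts, and the pair in Huwe1 had Mir3113 with 2 and 1 counts. Mirlet7i had no other miRNA gene in that distance.

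**Figure D2:**
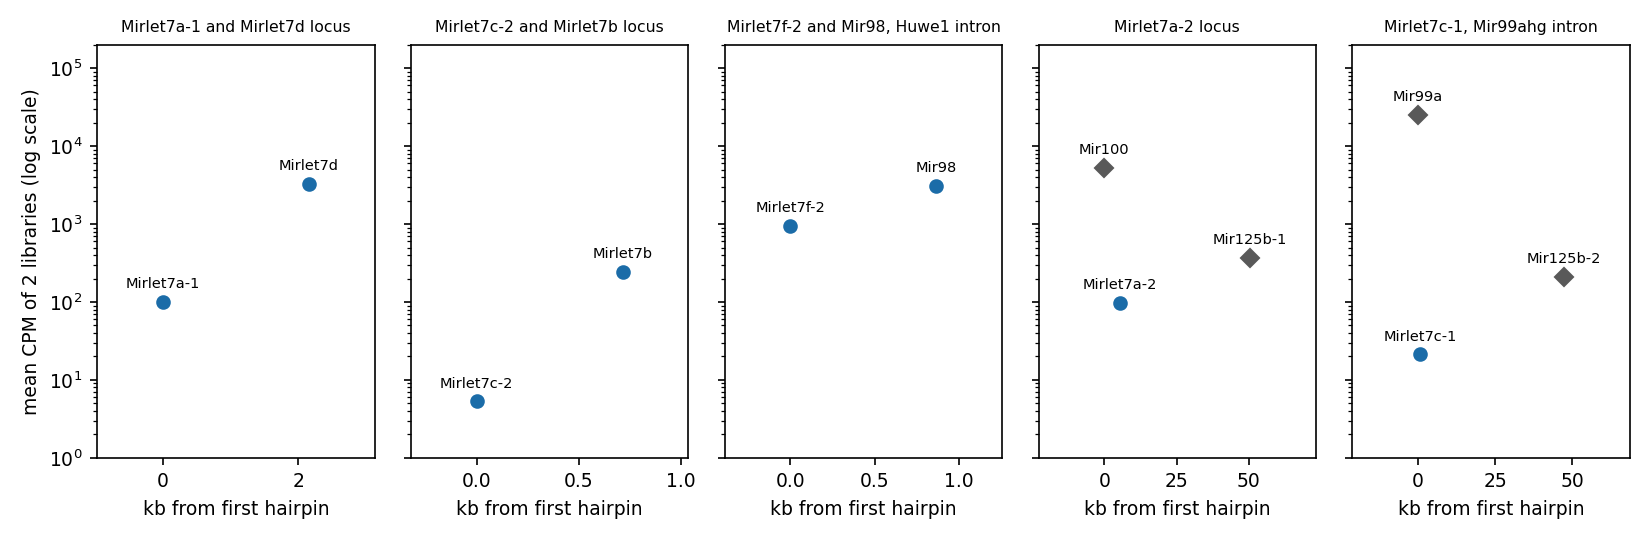
Mean CPM of the 2 libraries on a log axis against the distance in kb from the first hairpin of each locus, in the direction of transcription, with let-7 genes as circles and other miRNA genes as diamonds. Genes of a locus differ in level, and the ratio is 3.26 between Mir98 and Mirlet7f-2 and 1192 between Mir99a and Mirlet7c-1.

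The loop of the precursor is where Lin28 binds, and its zinc knuckles are known to contact the letters GGAG. The stretch between the mature arms is shown for 9 of the let-7 genes, 5′ to 3′ with GGAG in capitals, because this letter group separates precursors of the family that bear it from those that do not.
Mirlet7g: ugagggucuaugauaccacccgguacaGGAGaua
Mirlet7i: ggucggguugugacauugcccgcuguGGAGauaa
Mirlet7d: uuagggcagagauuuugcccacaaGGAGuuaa
Mirlet7f-2: uuagggucauaccccaucuuGGAGauaa
Mirlet7a-1: uuagggucacacccaccacugGGAGauaa
Mirlet7a-2: uagaguuacaucaagGGAGauaa
Mirlet7c-1: uagaguuacacccugGGAGuuaa
Mirlet7b: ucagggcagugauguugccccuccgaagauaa
Mirlet7c-2: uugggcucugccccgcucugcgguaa

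GGAG stood in 7 of these 9 loops, on the sense strand, the strand of the RNA. In 6 of them it ended 4 bases before the 3p arm and in Mirlet7g 3 bases before it. It was absent by these letters from Mirlet7b and Mirlet7c-2. Among 644 RefSeq mouse hairpins with both arms given, 8.23% of loops held it, with a median loop of 16 bases. The let-7 loops shown are longer, with 23 to 34 bases, and of the 53 loops in that range, let-7 genes included, 26.4% held it. The letters UGAU, linked to the cold shock domain of Lin28 and not overlapping GGAG, were found in 2 let-7 loops, those of Mirlet7g and Mirlet7b. They stood in 6.06% of the 644 loops and in 11.3% of those of like length.

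Genes with GGAG in the loop held 93.8% and 94.3% of the let-7 counts in replicates 1 and 2, and Mirlet7b and Mirlet7c-2, without it, held 0.457% and 0.438%. Mir98, whose loop is not reported here, held 5.76% and 5.29% and is in neither set. Genes with it ranged from 21.2 CPM for Mirlet7c-1 to 29605 CPM for Mirlet7g, while Mirlet7b and Mirlet7c-2 had 244 and 5.32 CPM. These ranges overlap. Low counts of genes with a repeated form are no measure of the mature form. Among single-form genes with a loop shown, Mirlet7d, Mirlet7i and Mirlet7g carried GGAG and averaged 3288, 18262 and 29605 CPM. The 1 such gene without it, Mirlet7b, averaged 244 CPM. Mir98, also with a single form, averaged 3082 CPM and is left out of this contrast. Mirlet7g and Mirlet7i, the highest genes, both carried GGAG. With so few genes this is a description, and no test was made. Binding by Lin28 was not measured.

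By counting error alone, most let-7 genes were higher in replicate 1 than in replicate 2. This compares a pair of libraries, not conditions. Each gene's counts were tested against library sizes scaled by TMM, a trimmed mean of log ratios, with a two-sided exact binomial test and Benjamini-Hochberg adjustment over 464 genes. At an adjusted p of 0.05, 8 of 10 let-7 genes were higher in replicate 1 and 0 lower, while 17.9% of all tested genes were called higher and 22.4% lower, or 40.3% in either direction. In edgeR's negative binomial exact test, which also allows for spread beyond counting, 1 of 10 was called at an assumed coefficient of variation of 0.1 and 0 of 10 at the coefficient of 0.162 estimated from these libraries. The estimated coefficient treats the 2 libraries as replicates, so the differences under test enter it as spread and few genes could pass at it. By sign alone, 9 of 10 let-7 genes had a log2 ratio above 0, against 47% of all tested genes. Among genes with 100 or more counts, 8 of 9 let-7 genes were called higher, against 27.7% of such genes called higher and 34.3% lower, a background chosen after the data were seen. The median log2 ratio of replicate 1 over replicate 2 was 0.21 for the let-7 genes, against -0.03 for all tested genes.

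The differences were small for the abundant genes and larger for some of the others. The log2 ratio of Mirlet7g was 0.08 (95% interval 0.07 to 0.10) and that of Mirlet7i 0.09 (0.07 to 0.11). Scaling by DESeq2 size factors gave 0.11 and 0.12 for these 2 genes, and scaling by total counts gave 0.15 for each, since these scalings shifted all ratios up by 0.03 and 0.06. Mirlet7d had a log2 ratio of 0.52 (0.48 to 0.55), or 1.43-fold higher in replicate 1, the largest among the 4 most abundant let-7 genes. Mirlet7a-1, its neighbour, had 0.51 (0.29 to 0.73). Mir98 had 0.25 (0.21 to 0.29) and Mirlet7f-2 0.15 (0.08 to 0.22). Mirlet7b had 0.17 (0.03 to 0.31), with the highest adjusted p among the 8 genes called, 0.0393 by the exact binomial test.

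Mirlet7a-2 had a log2 ratio of 0.78 (0.55 to 1.01), or 1.72-fold higher in replicate 1. With Mirlet7c-2 it made 2 of 10 let-7 genes at 1.5-fold or more, against 11% of all tested genes. Mirlet7c-2 had 0.83 (-0.17 to 1.95) and Mirlet7c-1 -0.07 (-0.55 to 0.42), and neither passed the test at its depth. In the negative binomial test of edgeR, Mirlet7a-2 alone passed at a coefficient of 0.1 (adjusted p = 0.0371), where 1.29% of genes were called higher in replicate 1. At the estimated coefficient 0 of 10 passed and 1 had an unadjusted p under 0.05, with 0.431% of genes called higher.

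**Figure D3:**
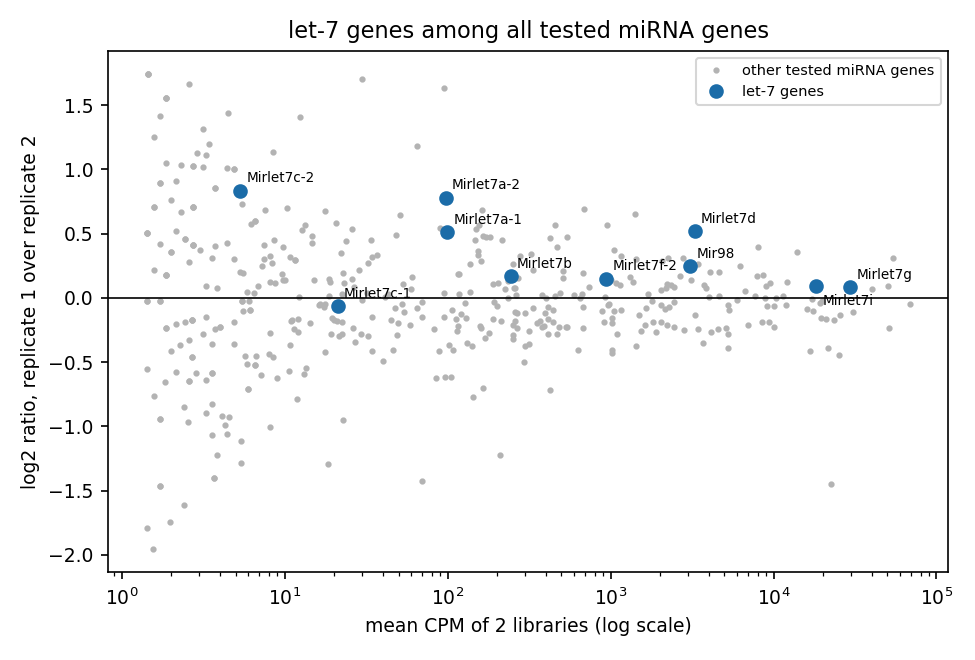
Log2 ratio of replicate 1 over replicate 2 on TMM-scaled library sizes against mean CPM on a log axis, with let-7 genes in blue and the other tested genes in grey. Of the 10 let-7 genes, 9 lie above 0, with Mirlet7g and Mirlet7i nearest to it among the abundant ones.

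Genes of one locus were compared directly by Fisher's exact test on their 4 counts, which needs no library scaling. Mirlet7a-1 and Mirlet7d had close ratios, and the difference in log2 ratio, Mirlet7a-1 minus Mirlet7d, was 0.00 (95% interval -0.23 to 0.22). Mirlet7i and Mirlet7g, which share no locus, differed by 0.00 (-0.02 to 0.03). For Mirlet7f-2 minus Mir98 the difference was -0.10 (-0.18 to -0.02, adjusted p = 0.0431 over 8 pairs, exact test). Mirlet7c-2 minus Mirlet7b gave 0.69 (-0.36 to 1.79), which did not pass.

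Mirlet7a-2 had a ratio of the opposite sign to the other genes of its locus in this pair of libraries. Counts of Mirlet7a-2 are no measure of let-7a, a repeated form whose reads aligned to several places are not counted. Mir100 and Mir125b-1 were lower in replicate 1, with log2 ratios of -0.39 (95% interval -0.42 to -0.36) and -0.18 (-0.30 to -0.07). The difference in log2 ratio was 1.17 (0.94 to 1.40) from Mir100 and 0.96 (0.71 to 1.22) from Mir125b-1, with adjusted p of 7.7e-24 and 1.4e-13 by Fisher's exact test. These p-values allow for counting error only and come from a test added after the data were seen. At the estimated coefficient of 0.162, the ratio of Mirlet7a-2 itself did not pass edgeR's negative binomial exact test. That coefficient takes in the differences between this pair of libraries, so few genes could pass at it. For Mirlet7c-1 minus Mir99a the difference was 0.38 (-0.11 to 0.86) and for Mirlet7c-1 minus Mir125b-2 0.11 (-0.39 to 0.62), and neither passed.

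**Figure D4:**
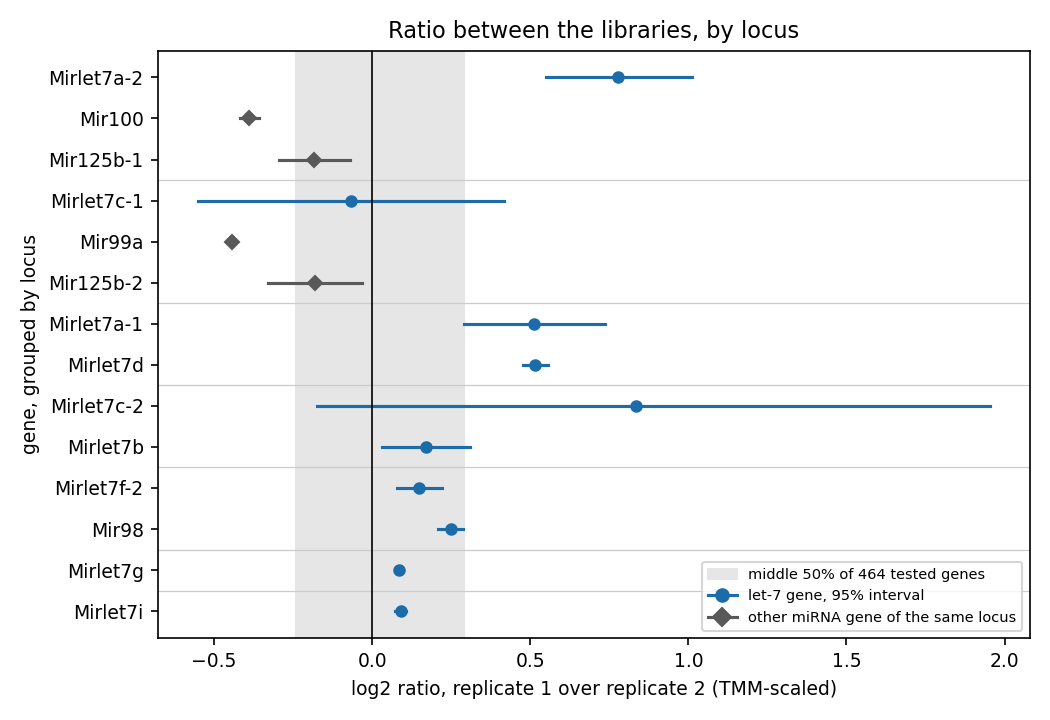
Log2 ratio of replicate 1 over replicate 2 with its 95% interval for counting error, for let-7 genes (circles) and other miRNA genes of the same locus (diamonds), with lines between loci. The shaded band from -0.24 to 0.29 holds the middle 50% of 464 tested genes. Mirlet7a-2 lies above the band, and Mir100 of the same locus lies below it.

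Markers of several cell types also differed between the libraries. Hepatocyte Mir122 had a log2 ratio of replicate 1 over replicate 2 of 0.31, and all 5 epithelial markers were called higher in replicate 1, summing to 3409 CPM there and 2116 CPM in replicate 2. Of 3 erythroid markers, 2 were called lower and 1 higher, with 12422 and 32496 CPM for Mir451a, which had a log2 ratio of -1.45. Of 5 mesenchyme markers, 4 were called lower and 0 higher, and their sum was 23576 and 25485 CPM. The 3 leukocyte markers summed to 7188 and 5831 CPM, with 1 called higher. Of 4 muscle markers analysed, 3 had 0 counts, and Mir206 was called lower. Reads of a repeated mature form that aligned to several places are not counted. The 0 counts alone therefore do not show that the mature forms were absent. The part of these cell types in the let-7 differences was not tested.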

How the data were processed

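Per the labels, both libraries hold short RNA of embryonic liver. The authors deposited raw read counts per gene and library for both strands together, the sense strand and the opposite strand. Build mm10 and annotation GENCODE M4 were used, per the file lists deposited with the libraries. No source used here names the aligner, the counter or the extraction protocol. In replicates 1 and 2, 29.4% and 25.8% of reads were unmapped. The shares with several alignments were 28.8% and 31.1%, and ambiguous ones came to 1 and 0 reads. Reads not on the sense strand of a listed gene made up 10.6% and 11.0%, which takes in those on the opposite strand. These 4 lines entered neither library sizes nor tests.

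Sense counts were scaled to CPM with Python 3.11.15. Names, coordinates and hosts came from GENCODE M21, also on mm10, where 1894 of 1973 identifiers were found, and sequences from RefSeq (GRCm38.p6). A mature form was called repeated where another RefSeq hairpin or mature entry holds it. Tests used genes with at least 10 counts over both libraries, R 4.3.3, edgeR 4.0.16 for TMM and the negative binomial test, and DESeq2 1.42.0 for other size factors. A log2 ratio has 0.5 counts added on each side. Intervals of ratios are exact (Clopper-Pearson) at 95%. edgeR's quasi-likelihood test could not be fitted with 1 library on each side. The exact binomial test was tried on simulated counts with known changes. The simulation held counting error only, so it does not bear on spread between libraries. The test within loci was added after the data were seen.

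The members, lists and groupings were chosen with earlier results of these data known. Named were all members, miRNA genes within 60 kb on the same strand, genes with the let-7 seed, lin-4 homologs, the 3 genes nearest in level to Mirlet7g and Mirlet7i, and cell type markers. Mir99b was named for its place beside Mirlet7e. The loop of Mir98 is not reported here. Alternatives changed the strand, denominator, scaling, count minimum, detection threshold and error model, or left out a replicate.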

Additional observations from a re-analysis of the deposited data

Results flagged for a closer look

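Mirlet7b had 4 opposite-strand counts in replicate 1 and 4 in replicate 2, against 909 and 793 sense counts. The main measurement leaves the opposite strand out, and these counts lie above the 3 that a count of 0 allows. M21 lists no gene on that strand. Mir98 had 1 and 0 opposite-strand counts, and the other 8 let-7 genes had 0 in both libraries, among them Mirlet7c-1, which overlaps Gm11146 on the other strand.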

How the results depend on the processing

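The let-7 share of 5.56% was 5.03% with counts of both strands and 1.76% with all reads of the library as denominator, because both enlarge the denominator. It was 5.20% to 5.92% with 1 replicate left out. The share of let-7 counts on single-form genes was 97.8% to 98.0% with 1 replicate left out, and 97.9% with both strands. Of 10 genes, 10 reached 1 CPM and 6 reached 100 CPM in both libraries. The number of let-7 genes that differed between the libraries was 8 under total counts, DESeq2 size factors, both strands and a minimum of 100 counts, and 7 without a minimum, where Mirlet7b no longer passed among 754 genes. It was 1 and 0 in edgeR's negative binomial test at coefficients of 0.1 and 0.162. Over all genes, 83 were higher in replicate 1 and 104 lower, and with total counts 101 and 77. No log2 ratio of a let-7 gene changed sign under the scalings or strands tried. No paired analysis was possible because there is a single group. Depth limits Mirlet7c-1 and Mirlet7c-2, whose intervals take in 0, and reads aligned to several places limit every repeated form.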
